A study of Homo sapiens with 11 samples.

Results

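The EGFR family and its ligands were followed in Caki-1-SR clone 1, 1 sunitinib-resistant line of the human clear cell renal cell carcinoma (ccRCC) line Caki-1. The set held 10 of the 26485 gene symbols counted: the receptors EGFR, ERBB2 and ERBB3, the ligands AREG, EREG, HBEGF, TGFA, BTC and EPGN, and the inhibitor ERRFI1. All 10 symbols had a row at both time points, and 9 passed the filter on low counts at each. Cells received the optimized drug combination (ODC), in which erlotinib, which blocks the kinase of EGFR, was dosed at 1 µM beside Rapta-C, built around ruthenium, at 2 µM, the diabetes drug metformin at 1 µM and parthenolide, from a plant, at 5 µM. There were 3 CTRL and 3 ODC libraries at 24 h, and 2 CTRL and 3 ODC libraries at 2 h. The growth protocol keeps the resistant cells, whatever their group, in medium with 1 µM sunitinib, an inhibitor of receptor tyrosine kinases. The paper's methods describe sham-treated controls, whereas its results speak of untreated cells. The question put to the data was whether the transcripts of erlotinib's target and of that target's ligands differed between treated and control cells.

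EGFR is a receptor tyrosine kinase at the cell surface, and it pairs with itself or with ERBB2 or ERBB3 once a ligand binds. The ligands are made as membrane proteins and are released by proteases such as ADAM17. An active receptor signals through RAS and ERK and through PI3K and AKT, and one of the genes it switches on is ERRFI1, whose protein binds the kinase and inhibits it.

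The 24 h libraries held 17785229 to 20882856 counts each and the 2 h libraries 25782895 to 31118349. Values are counts scaled to library size with TMM factors (CPM). A floor of 3 counts, which covers counting error only, equalled 0.144 to 0.166 CPM in the 24 h libraries and 0.0953 to 0.116 CPM in those of 2 h. The labels do not say that replicates were separate cultures, so p-values measure only the spread between these libraries. The titles carry a different month for each time point, so time and that label cannot be told apart. In bulk RNA, fewer cells and less RNA per cell cannot be told apart either. Of 10 renal and ccRCC markers, 7 were over 1 CPM in all 11 libraries, while CA9, a hallmark of ccRCC, and PAX2, a renal transcription factor, had at most 4 counts. Leukocyte markers summed to 0.166 to 2.76 CPM, endothelial markers to 0 to 1.28 CPM and fibroblast markers to 66.6 to 288.3 CPM. One library stood apart: CTRL replicate 1 at 2 h held 1081 counts of COL3A1, a fibrillar collagen gene, against at most 6 in each of the others. It also held 73 counts of DCN and 65 of LUM, which encode matrix proteoglycans, and 100 of the epithelial gene EPCAM. These genes were singled out after their values were seen, and their part in the results was not tested. The fold changes of the 9 members at 2 h are therefore also given without it, which leaves 1 CTRL library that is assumed to vary like the treated ones.

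AREG, EREG, BTC and EPGN lie within 486.1 kb of chromosome 4 (74308470 to 74794523, hg38, GENCODE release 44). RefSeq gave a start-site window for 9 of the 10 genes. The 250 bases before the start are printed for AREG with BTC and EREG with ERRFI1, since their replicate deviations gave 2 of the 3 smallest p among members (none under 0.05 once adjusted), read 5′ to 3′ along the gene's own strand (GRCh38.p14). The AREG window is chr4:74444886-74445135 (plus strand), BTC chr4:74794524-74794773 (minus), EREG chr4:74364895-74365144 (plus) and ERRFI1 chr1:8026310-8026559 (minus). Capitals mark matches, on either strand, to the AP-1 motif TGANTCA, the cyclic AMP response element (CRE) TGACGTCA, the TEAD motif GGAATG and the antioxidant response element TGACNNNGC.
AREG: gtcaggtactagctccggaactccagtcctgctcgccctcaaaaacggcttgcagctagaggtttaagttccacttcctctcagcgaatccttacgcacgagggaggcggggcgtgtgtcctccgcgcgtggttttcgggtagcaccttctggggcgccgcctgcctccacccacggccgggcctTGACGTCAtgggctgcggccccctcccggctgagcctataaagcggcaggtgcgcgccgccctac
BTC: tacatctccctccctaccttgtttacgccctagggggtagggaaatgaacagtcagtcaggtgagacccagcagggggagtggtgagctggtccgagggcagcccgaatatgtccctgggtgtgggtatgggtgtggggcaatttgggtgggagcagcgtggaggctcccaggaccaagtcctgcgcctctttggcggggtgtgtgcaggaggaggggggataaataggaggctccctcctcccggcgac
EREG: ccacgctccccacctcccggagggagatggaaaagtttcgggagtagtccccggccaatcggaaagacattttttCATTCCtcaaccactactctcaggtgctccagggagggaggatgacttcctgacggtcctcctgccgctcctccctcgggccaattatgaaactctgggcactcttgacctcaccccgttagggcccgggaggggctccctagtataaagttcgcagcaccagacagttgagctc
ERRFI1: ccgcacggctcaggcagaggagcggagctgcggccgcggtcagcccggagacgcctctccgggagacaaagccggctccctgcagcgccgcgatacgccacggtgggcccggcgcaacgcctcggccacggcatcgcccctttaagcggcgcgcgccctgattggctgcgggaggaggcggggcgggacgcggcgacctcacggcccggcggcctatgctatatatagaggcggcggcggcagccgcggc
The CRE letters stood in AREG, at -65 to -58 from the start, and 1.65% of all 35116 windows of this length hold them. EREG held the TEAD letters on the other strand at -175 to -170, as 11.9% of all windows do on one strand or the other. The AP-1 letters (6.57% of all windows) and the antioxidant element (10.9%) matched in none of the 4 windows. Among the member windows not printed, the AP-1 letters matched at 2 places in an EGFR window and 1 place in the ERBB2 window. That EGFR window (chr7:55109589-55109838) lies inside the gene, and the EGFR window before the gene's start (chr7:55018767-55019016) had 0. The starts of the inner EGFR window and of the ERBB2 window did not match the start of a GENCODE transcript. A looser NF-kB pattern was searched as well and left unmarked once it was seen in 54.4% of all windows. It matched at 2 places in AREG, 3 in BTC, 1 in ERRFI1 and 0 in EREG. A match is a description of letters and not of binding.

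Levels were compared between genes as TPM, which is also scaled for the length of each gene's exons. EREG, which encodes epiregulin, had the highest mean TPM of the 10 genes in every group. At 2 h the CTRL means were 641.9 TPM for EREG, 247.3 for TGFA (transforming growth factor alpha) and 92.2 for ERRFI1, and the ranges of these neighbours did not overlap. EGFR (58.9) and AREG, which encodes amphiregulin (58.5), could not be ordered, nor could AREG and HBEGF (27.4) or HBEGF and ERBB2 (20.4). BTC, which encodes betacellulin, lay lower at 11.4 TPM, and ERBB3 (0.221) and EPGN (0.211), which encodes epigen, were near the floor. In CTRL replicate 2 alone, without the library that stood apart, the levels were 383.3 TPM for EREG, 213.4 for TGFA, 77.5 for ERRFI1, 66.2 for EGFR and 35.3 for AREG. In the 24 h CTRL cells, EREG stood at 372.6 TPM, above TGFA (142.5), EGFR (128.8), ERRFI1 (109.8) and HBEGF (104.2), each of which overlapped its neighbour. In the 24 h ODC cells, EREG (238.8) overlapped EGFR (174.2), EGFR overlapped HBEGF (166.2) and HBEGF overlapped TGFA (146.9), whereas TGFA lay above ERRFI1 (64.0) in every library.

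**Figure D1:**
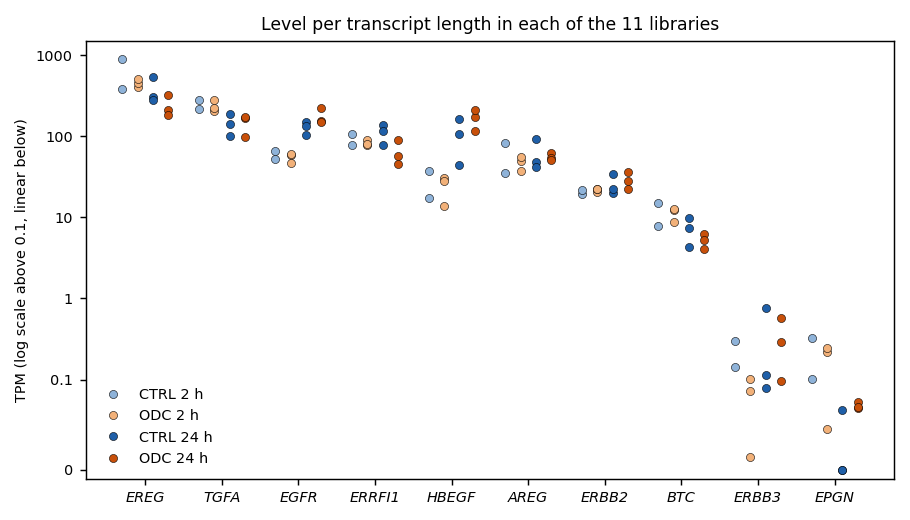
TPM of the 10 genes (horizontal axis) in each of the 11 libraries, on an axis that is logarithmic above 0.1 and linear below; each point is 1 library, coloured by group. EREG had the highest mean in every group, and ERBB3 and EPGN lay below 1 TPM in every library.

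Shares of the member ligands were also described at 24 h, in a pool that leaves out EGF and NRG1. EREG took 57.5%, 60.4% and 44.4% of the summed ligand TPM in CTRL replicates 1 to 3 and 37.8%, 35.7% and 42.2% in ODC replicates 1 to 3. All ODC libraries lay below all CTRL libraries, the nearest by a narrow gap, and this share was examined after the levels were seen and has no test. Of all genes tested, 17.9% separated in CPM at 24 h. The level of EREG did not separate, with 319.7 TPM in ODC replicate 3 against 305.2 and 278.3 in CTRL replicates 2 and 3. A share also moves with the levels of the other ligands. HBEGF, the heparin-binding ligand, took 11.4%, 8.76% and 25.8% in CTRL and 20.3%, 33.9% and 27.6% in ODC. Those ranges overlapped. EGFR took 81.2% to 87.0% of the summed receptor TPM at 24 h and 69.3% to 75.4% at 2 h.

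At 24 h, no member passed an adjusted p of 0.05 in edgeR's quasi-likelihood test (Benjamini-Hochberg), against 24 of the 12689 genes tested (0.189%). At an unadjusted p under 0.05 there were 2 of 9 members, EGFR higher and ERRFI1 lower, against 12.2% of all genes. DESeq2 also gave 0 members with an adjusted p under 0.05. In 0 of the 9 did the groups separate, against 17.9% of all genes. The median log2 fold change was 0.04 over the 9 members and 0.00089 over all genes.

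EGFR was measured at 356.5, 496.5 and 442.5 CPM in CTRL replicates 1 to 3 and at 532.4, 770.1 and 492.1 CPM in ODC replicates 1 to 3. ODC replicate 2 was the highest library, and the groups overlapped only between CTRL replicate 2 and ODC replicate 3, so that 8 of 9 pairs of libraries were higher in ODC. The CTRL mean was 431.8 ± 70.6 CPM (SD, n = 3) and the ODC mean 598.2 ± 150.2 CPM (SD, n = 3). The log2 fold change was 0.47 (standard error 0.19). Its adjusted p was 0.376 in edgeR's quasi-likelihood test (Benjamini-Hochberg) (unadjusted 0.0393), and 0.198 to 0.845 over 13 alternatives. With adjacent libraries taken as pairs, which the labels do not state, the adjusted p from edgeR was 0.0535. Without ODC replicate 2 the log2 fold change was 0.24. EGFR lies on chromosome 7 from 55019017 to 55211628, and EGFR-AS1 overlaps it on the other strand.

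ERBB2, the partner receptor with no ligand of its own, stood at 44.7, 72.9 and 48.5 CPM in CTRL and 62.7, 82.0 and 47.6 CPM in ODC. The groups overlapped throughout, and the log2 fold change was 0.21 (standard error 0.24), for which edgeR gave an adjusted p of 0.792. ERBB2 shares bases with MIEN1 and PGAP3 on the other strand, and the strand setting of the counting is not given in the sources used here. ERBB3, the receptor with a nearly inactive kinase, had 6, 35 and 4 counts in CTRL and 15, 27 and 5 in ODC. Both groups held low and higher libraries, and the log2 fold change was 0.04 (standard error 0.86).

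**Figure D2:**
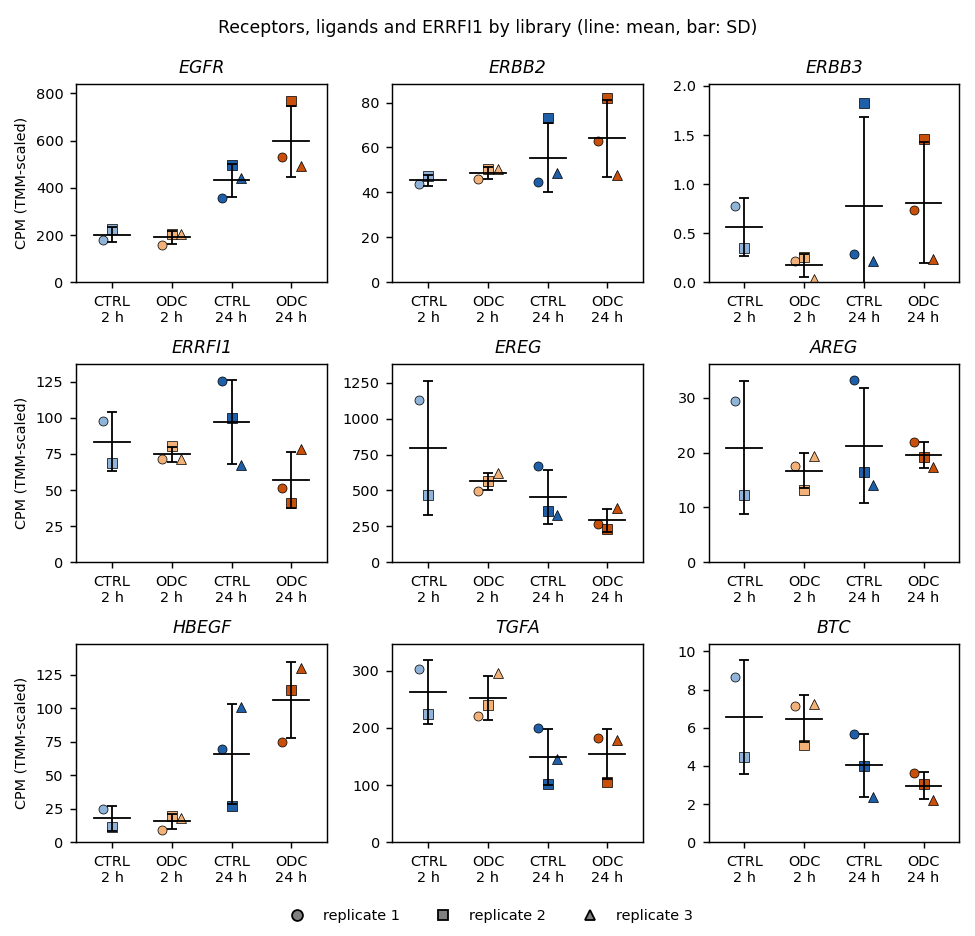
CPM (vertical axis, from 0) of 9 members in CTRL and ODC libraries at 2 h and 24 h; points are libraries, shaped by replicate number, the horizontal line is the mean and the bar the SD, cut at 0 for ERBB3. At 24 h the groups overlapped in each panel, including EGFR, where ODC reached 770.1 CPM, and ERRFI1, where ODC fell to 41.0 CPM.

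ERRFI1, the feedback inhibitor, had the smallest p of the 9 members at 24 h. It was at 125.2, 99.6 and 67.1 CPM in CTRL and at 51.5, 41.0 and 78.8 CPM in ODC. The 2 lowest libraries were ODC replicates 1 and 2, and the groups overlapped because ODC replicate 3 lay above CTRL replicate 3. CTRL averaged 97.3 ± 29.1 CPM (SD, n = 3), and ODC averaged 57.1 ± 19.5 CPM (SD, n = 3). The log2 fold change was -0.77 (standard error 0.28), and edgeR's quasi-likelihood test gave an adjusted p of 0.317 (Benjamini-Hochberg, unadjusted 0.026), and 0.109 to 0.801 over 13 alternatives. Without ODC replicate 3 it was -1.07, and without CTRL replicate 1 it was -0.55. The 5 genes most like ERRFI1 over the 11 libraries, with the mean of each time point subtracted, were FHL1 (Pearson r 0.967), NEK7 (0.942), TMEM158 (0.938), PLAT (0.935) and DEPDC4 (0.933). Without the 2 h library that stood apart, the r of these 5 genes ran from 0.928 to 0.967. These r describe libraries that share groups, and no test was made.

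Among the ligands, EREG was at 668.2, 358.8 and 332.2 CPM in CTRL and 266.0, 229.2 and 379.3 CPM in ODC at 24 h. CTRL replicate 1 was far above the rest, and ODC replicate 3 lay above CTRL replicates 2 and 3. The log2 fold change was -0.64 (standard error 0.29), and edgeR's quasi-likelihood test gave an adjusted p of 0.436. Without CTRL replicate 1 the value was -0.25. HBEGF was at 69.5, 27.2 and 101.2 CPM in CTRL and 74.9, 113.9 and 130.1 CPM in ODC. ODC was higher in 8 of 9 pairs, but the CTRL libraries spread widely. Its log2 fold change was 0.69 (standard error 0.42), and edgeR's quasi-likelihood test gave an adjusted p of 0.567. That value was 0.32 without CTRL replicate 2 and 1.13 without CTRL replicate 3. TGFA (log2 fold change 0.06, standard error 0.28), AREG (-0.12, standard error 0.30) and BTC (-0.45, standard error 0.34) each overlapped between the groups. EPGN had 0 or 1 count in every 24 h library, so a difference was not detectable at this depth.

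At 2 h, no gene of 13332 passed an adjusted p of 0.05 (0%) in edgeR's quasi-likelihood test, and DESeq2 called 1 gene, not a member. At an unadjusted p under 0.05 there was 1 of 9 members, ERBB3, against 312 genes (2.34%). ERBB3 was also the 1 member whose libraries did not overlap, against 15.3% of all genes. It had 20 and 10 counts in CTRL and 7, 8 and 1 in ODC, so the separation rests on very few reads. Its log2 fold change was -1.66 (standard error 0.69), and edgeR's quasi-likelihood test gave an adjusted p of 1.0. Without CTRL replicate 1 the log2 fold change was -1.0 (standard error 0.91).

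EREG at 2 h was at 1127 and 467.2 CPM in CTRL and between 499.5 and 622.8 CPM in ODC. The treated libraries lay between the 2 controls, which differed from each other more than the treated libraries did. The log2 fold change was -0.50 (standard error 0.30), 0.27 without CTRL replicate 1 and -0.99 without CTRL replicate 2. In that last fit, against the library that stood apart alone, the adjusted p was 0.0342 in edgeR's quasi-likelihood test. AREG, HBEGF, TGFA, BTC and ERRFI1 also turned from a negative to a positive log2 fold change without CTRL replicate 1, at 0.43, 0.48, 0.17, 0.54 and 0.11. EGFR (-0.09, standard error 0.14) and ERBB2 (0.10, standard error 0.10) had the narrowest errors of the 9 members at 2 h, and without CTRL replicate 1 they were -0.24 and 0.047. EPGN had 6 and 2 counts in CTRL and 5, 1 and 5 in ODC, and was not tested.

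**Figure D3:**
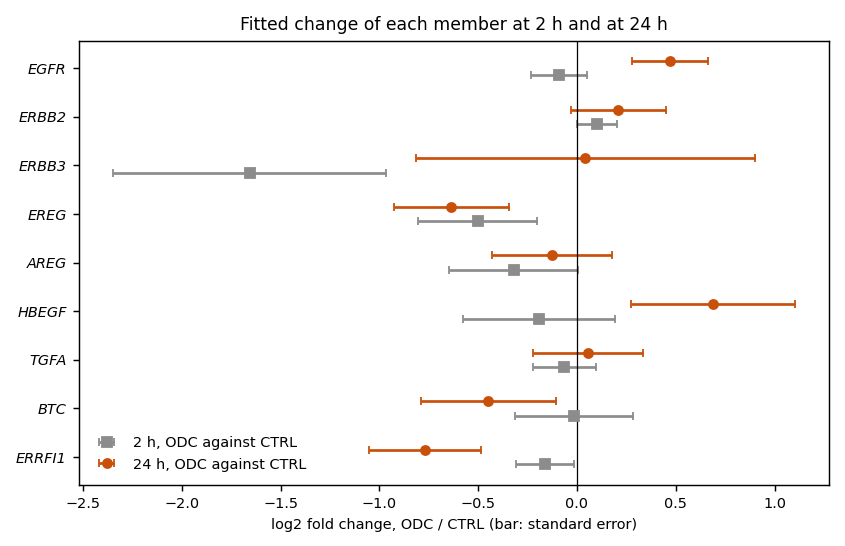
Log2 fold change of ODC against CTRL (horizontal axis) for 9 members at 2 h (squares) and 24 h (circles), with the standard error of edgeR's fit as the bar. At 24 h EGFR (0.47) and HBEGF (0.69) lay to the right and ERRFI1 (-0.77) and EREG (-0.64) to the left; in edgeR's quasi-likelihood test none had an adjusted p under 0.05.

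A joint fit of 13333 genes compared the 24 h effect of ODC with its 2 h effect. Of these genes, 0.015% had an adjusted p under 0.05 and 5.93% an unadjusted one. No member had either. For EGFR the difference was 0.54 (standard error 0.27, edgeR adjusted p = 0.873), and 0.32 to 0.70 with 1 library left out. For ERRFI1 it was -0.62 (standard error 0.38), and -0.94 to -0.40 with 1 left out. The HBEGF difference of 0.86 (standard error 0.66) rested on single libraries, at 0.20 without CTRL replicate 1 of 2 h and 1.31 without CTRL replicate 2 of 2 h.

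Deviations of replicate libraries were compared between members. After group means were subtracted from log2 CPM, AREG and BTC had a Pearson r of 0.913 over 11 libraries (exact permutation within groups, two-sided, p = 0.00694, adjusted over 36 pairs 0.25) and a Spearman rho of 0.936 (exact permutation p = 0.00231, the smallest it can give, adjusted 0.0833). EREG and ERRFI1, which lie on different chromosomes, had an r of 0.825 (exact permutation p = 0.0278, adjusted 0.333) and a rho of 0.836 (exact permutation p = 0.0324, adjusted 0.367). EGFR and ERBB2 had an r of 0.833 (exact permutation p = 0.0139, adjusted 0.25) and a rho of 0.918 (exact permutation p = 0.00463, adjusted 0.0833). Without the 2 libraries farthest from the median, the r values for AREG with BTC, EREG with ERRFI1 and EGFR with ERBB2 were 0.86, 0.789 and 0.722. Over the 9 libraries outside the 2 h CTRL group, in a setting chosen after the data were seen, they were 0.883, 0.857 and 0.85. None of the 36 pairs passed after adjustment.

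**Figure D4:**
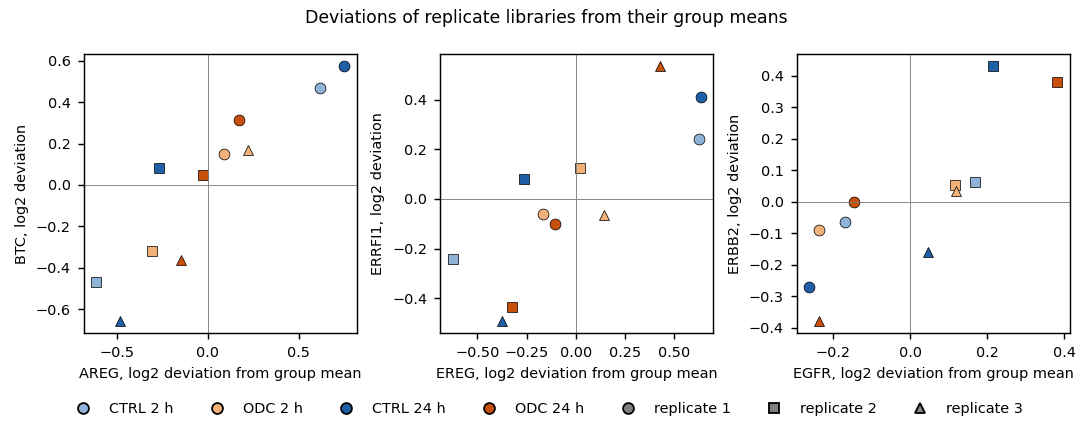
Deviation of each library from its group mean (log2 CPM) for AREG and BTC, EREG and ERRFI1, and EGFR and ERBB2; colours are groups and shapes replicate numbers. The Pearson r was 0.913, 0.825 and 0.833 over 11 libraries, and CTRL replicate 1 at 2 h and at 24 h lay at the upper right for EREG and ERRFI1.

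Of the other ERBB receptor and ligands, NRG1, which encodes neuregulin 1, a ligand of ERBB3 and ERBB4, separated at 24 h. It was at 68.0, 68.3 and 119.3 CPM in CTRL and 134.1, 145.1 and 156.3 CPM in ODC, with ODC above CTRL in all 9 pairs of libraries. Its log2 fold change was 0.77 (standard error 0.22), and edgeR's quasi-likelihood test gave an adjusted p of 0.213. The adjusted p was 0.0256 with adjacent libraries as pairs and 0.0237 in DESeq2, and over 13 alternatives it reached 0.668 in edgeR. EGF, the ligand the receptor is named for, averaged 0.682 ± 0.217 CPM (SD, n = 3) without ODC, and 1.29 ± 0.428 CPM (SD, n = 3) with it. Its libraries separated too, with a log2 fold change of 0.92 (standard error 0.38) and an adjusted p of 0.378 in edgeR's quasi-likelihood test. ERBB4 had at most 10 counts in any library, NRG2 at most 8 and NRG4 at most 4, and NRG3 had 0 in all 11.

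Genes of ligand shedding and transport had positive fold changes at 24 h in 5 of 5 tested, 3 of them with an unadjusted p under 0.05. Over all 12689 genes, 6363 had positive fold changes and 12.2% an unadjusted p under 0.05. RHBDF2, an inactive rhomboid that carries ADAM17 to the surface, averaged 55.5 ± 8.99 CPM (SD, n = 3) without ODC, and 100.3 ± 9.98 CPM (SD, n = 3) with it, and the groups separated. Its log2 fold change was 0.85 (standard error 0.14), and edgeR's quasi-likelihood test gave an adjusted p of 0.0712. The adjusted p was 0.0109 with adjacent libraries as pairs and 2.41e-05 in DESeq2, and over 13 alternatives it reached 0.324 in edgeR. ADAM17, the sheddase itself, had a log2 fold change of 0.32 (standard error 0.10) and RHBDF1, a relative of RHBDF2, of 0.39 (standard error 0.17). The remaining genes, ADAM10 (0.07, standard error 0.11) and FRMD8 (0.14, standard error 0.10), overlapped between the groups. For ADAM10, ODC was higher in 3 of 9 pairs of libraries, and the log2 fold change ran from -0.05 to 0.13 over 13 alternatives.

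In the list of genes that respond to ERK, 1 of 19 fell past an adjusted p of 0.05 at 24 h, against 0.189% of all genes, and 6 had an unadjusted p under 0.05, all with negative fold changes, against 12.2%. Fold changes were negative in 12 of the 19 and positive in 7, with a median of -0.17. With adjacent libraries as pairs, 3 of the 19 had an adjusted p under 0.05 in edgeR, against 686 of all 12689 genes in that fit. ETV1, an ETS transcription factor gene, was at 12.7, 10.8 and 10.5 CPM in CTRL and 2.46, 1.89 and 3.85 CPM in ODC, with every ODC library below every CTRL library. Its log2 fold change was -2.05 ± 0.26 (standard error), and edgeR's quasi-likelihood test gave an adjusted p of 0.0404. The adjusted p was not under 0.05 in 5 of 6 fits that left out 1 library (highest 0.259, without ODC replicate 1), and the log2 fold change ran from -2.38 to -1.85. EGR1, an immediate early gene, was at 41.8, 21.2 and 18.9 CPM in CTRL and 6.93, 7.73 and 2.45 CPM in ODC. It separated as well, with a log2 fold change of -2.26 ± 0.45 (standard error). Its adjusted p from edgeR was 0.107, 0.011 with adjacent libraries as pairs and up to 0.452 over 13 alternatives. PHLDA1 had a log2 fold change of -0.87. Its adjusted p from edgeR was 0.153, 0.0423 with adjacent libraries as pairs and up to 0.518 over 13 alternatives. ETV4 (-1.39), DUSP6 (-1.08) and ETV5 (-0.76) were the others, and DUSP6 and ETV5 were named after their values were seen. Their adjusted p from edgeR was 0.312, 0.192 and 0.395, and ETV5 overlapped between the groups. The 7 with positive fold changes, also named after their values were seen, each overlapped between the groups. They were FOS (0.54), IER3 (0.38), EPHA2 (0.36), DUSP4 (0.30), DUSP5 (0.21), MYC (0.12) and FOSL1 (0.07). At 2 h, EGR1 in ODC replicate 2 was at 158.5 CPM against 3.91 and 6.63 in the other ODC libraries, and PHLDA1 in CTRL was at 340.0 and 45.4 CPM, so the 2 h libraries of 1 group differed widely.

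**Figure D5:**
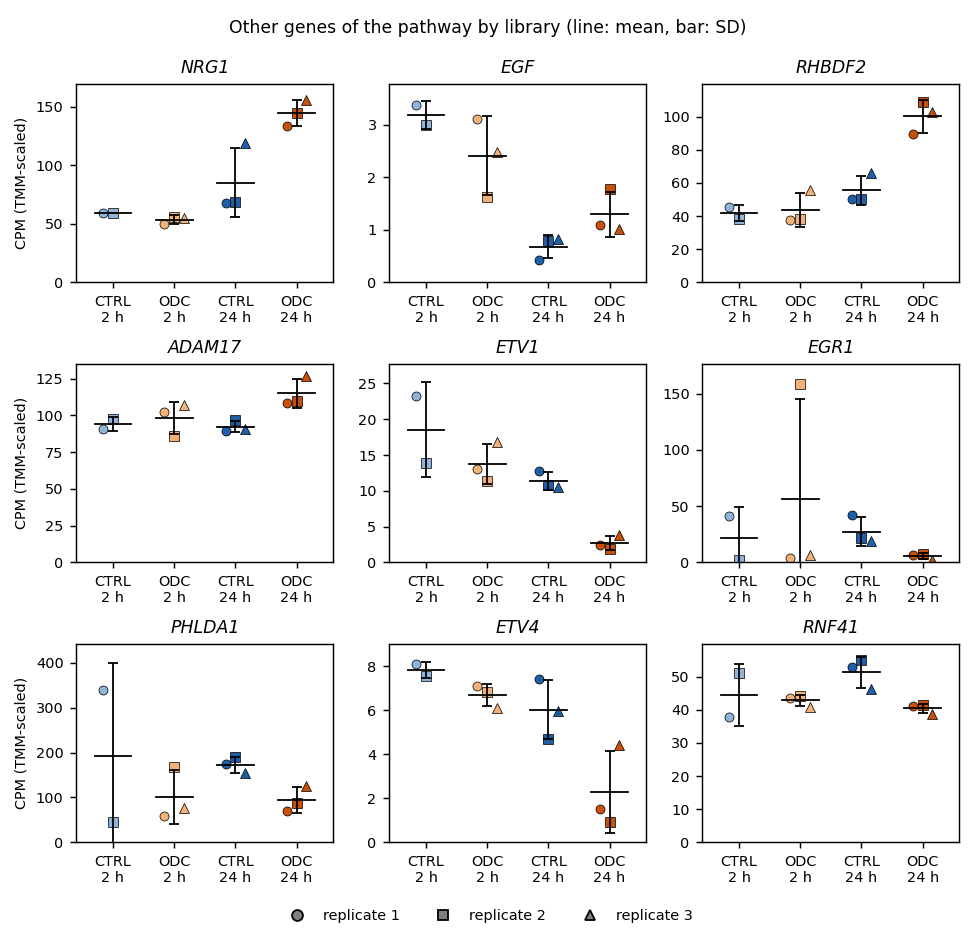
CPM (vertical axis, from 0) of 9 other genes of the pathway in CTRL and ODC libraries at 2 h and 24 h. Points are libraries, the line is the mean and the bar the SD, cut at 0. The 9 are among the genes named for small p in their lists, so their separation follows in part from that choice. The groups did not overlap at 24 h in 17.9% of all genes tested. At 24 h the ODC libraries lay above CTRL for NRG1, EGF, RHBDF2 and ADAM17 and below for ETV1, EGR1, PHLDA1, ETV4 and RNF41; of these 9, edgeR's quasi-likelihood test gave ETV1 an adjusted p under 0.05, and DESeq2 and the fit with adjacent libraries as pairs gave one to NRG1, RHBDF2, EGR1 and PHLDA1 as well.

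At 24 h, 12.2% of all genes had an unadjusted p under 0.05. In the adaptors and the RAS-ERK cascade it was 0 of 16 genes, and in the PI3K-AKT arm 0 of 8. BRAF, a kinase of the cascade, had the smallest p of the former with a log2 fold change of 0.26 (standard error 0.12), and PIK3CB, a PI3K catalytic subunit, that of the latter with 0.17 (standard error 0.10). At 2 h the numbers were 1 of 16 and 0 of 8, against 2.34% of all genes. The 1 gene was MAP2K2, with a log2 fold change of 0.21 (standard error 0.09). Of 11 tested genes that degrade or dampen the receptors, 1 had an unadjusted p under 0.05 at 24 h, beside the same 12.2% of all genes. It was RNF41, a ubiquitin ligase for ERBB3, with a log2 fold change of -0.35 (standard error 0.10). Its adjusted p was 0.242 in edgeR's quasi-likelihood test. At 2 h, 1 of the 11 had an unadjusted p under 0.05, against 2.34% of all genes. This was CBL, the ubiquitin ligase of EGFR, with a log2 fold change of -0.32 (standard error 0.11). It was -0.14 without CTRL replicate 2 and -0.47 without CTRL replicate 1. Beside these 24 h values, KRT8, KRT18 and VIM were lower in every ODC library than in every CTRL library (log2 fold change -0.62, -0.71 and -0.27). With adjacent libraries as pairs, KRT18 had an edgeR adjusted p of 0.0423, against 0.128 without pairs. These 3 markers were named after their values were seen, and their part in the results was not tested.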

How the data were processed

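Stranded mRNA libraries were read as single-end sequences. The authors aligned them to hg38, and HTSeq 0.9.1 assigned them to genes. The deposited values are raw counts, not normalized. Per the labels STAR was version 2.7.0f, and the paper's methods give 2.5.3a. From the counts, ODC and CTRL were compared at 24 h (12689 genes) and at 2 h (13332) with edgeR 4.0.16 (R 4.3.3), its earlier quasi-likelihood method, TMM factors and filterByExpr (minimum count 10, minimum total 15), two-sided, with Benjamini-Hochberg adjustment over all genes tested; a joint fit gave the difference. TPM used exon lengths of GENCODE release 44 over symbols that matched (22923 directly, 1361 through older symbols, 2201 not). Alternatives were other filters and scalings, DESeq2 1.42.0, a joint fit, library pairs as a block, and each library left out. Named genes were all 10 members, every other ERBB gene, the 3 smallest p per list and time, and any gene with an adjusted p under 0.05; others are marked. Members, lists and tests were chosen with earlier results of these data known. The scripts were tested on simulated data.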

Additional observations from a re-analysis of the deposited data

How the results depend on the processing

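At 24 h the 24 genes with an adjusted p under 0.05 became 92 without the filter on low counts, 378 with DESeq2, 186 in a joint fit of all libraries, and 2 to 70 with 1 library left out (70 without ODC replicate 3, 2 without CTRL replicate 1). With adjacent library pairs as a replicate block, 686 genes had an adjusted p and 2999 an unadjusted p under 0.05, and no member had an adjusted one. Deviations within these pairs correlated at 0.239, 0.618 and 0.483. CTRL replicate 1 correlated as highly with ODC replicate 3 (0.243), which is not adjacent to it. The other pairs that are not adjacent ran from -0.572 to 0.018. The labels do not say that library numbers pair the samples, so this is a hint from the data, and the first pair was not singled out by it. Leaving out 1 library gave 897 to 2006 genes and 0 to 4 members with an unadjusted p under 0.05, and 0 members with an adjusted one. At 2 h, every gene of at least 1 count gave 591 genes and 2 members with an unadjusted p, and DESeq2 gave 1 gene with an adjusted p. Members with an unadjusted p were 0 with at least 10 counts in every library, 0 with DESeq2 and 0 in the joint fit. Leaving out 1 library gave 0 to 42 genes and 0 to 1 members with an adjusted p, and 176 to 1201 genes and 0 to 4 members with an unadjusted one; the 42 came without CTRL replicate 2, which leaves the library that stood apart as the control. For the difference, 7 genes had an adjusted p and 1 member an unadjusted p with every gene tested, DESeq2 gave 38 genes, and leaving out 1 library gave 0 to 4 genes and 0 to 2 members.

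The direction turned for ERBB3 at 24 h with library size only (-0.0030) and for BTC at 2 h with every gene tested (0.0014). With 1 library left out, the log2 fold change at 24 h ran from -0.013 to 0.46 for ERBB2, -0.67 to 1.62 for ERBB3, -0.35 to 0.34 for AREG and -0.16 to 0.32 for TGFA. At 2 h it ran from -0.24 to 0.093 for EGFR, -0.80 to 0.43 for AREG, -0.99 to 0.27 for EREG, -0.64 to 0.48 for HBEGF, -0.25 to 0.17 for TGFA, -0.40 to 0.54 for BTC and -0.38 to 0.11 for ERRFI1. The difference ran from -0.12 to 0.34 for ERBB2, -0.57 to 0.66 for AREG, -0.91 to 0.34 for EREG and -0.12 to 0.38 for TGFA. Beyond what each setting changes by construction, the cause was not tested. Depth limits ERBB3 and EPGN most.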
